A study of Mus musculus with 2 samples.

Results

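The clustered protocadherins are cell surface adhesion proteins whose genes stand in tandem in the alpha, beta and gamma clusters of mouse chromosome 18. Protein-coding genes of GENCODE release M21 with symbols beginning Pcdha, Pcdhb or Pcdhg were taken, which gave 57 of the 21938 protein-coding genes on the assembled chromosomes: 14 alpha, 22 beta and 21 gamma genes. All peaks and hotspots from 100 kb before the first to 100 kb after the last of these genes were examined, a window of 1112 kb on chromosome 18 from 36830184 to 37941873 (GRCm38, the assembly that mm10 names). The data were DNase-seq, in which DNase I cuts DNA where chromatin is open. The cells were adipocytes at day 8 of differentiation in culture from 3T3-L1, a mouse preadipocyte line that is itself a clone. There was 1 group with 2 libraries, labelled as biological replicates 1 and 2 and carrying 1 donor record, and nothing in the labels said that the cultures were differentiated separately. The strain label read C57BL/6J, whereas 3T3-L1 is generally described as a Swiss mouse line, so no strain was assumed.

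In the alpha and gamma clusters each gene begins with its own large variable exon, which has its own promoter and encodes the extracellular cadherin repeats, the membrane span and the start of the tail. That exon is spliced to small constant exons shared by the whole cluster, while beta genes have no constant exons. In neurons each cell transcribes a small set of these promoters, chosen largely at random, and CTCF, cohesin and promoter methylation are known to take part in the choice. The C-type genes (Pcdhac1, Pcdhac2, Pcdhgc3, Pcdhgc4 and Pcdhgc5) lie next to the constant exons and are transcribed more uniformly across neurons. In bulk chromatin a site open in few cells and a site weakly open in many cannot be told apart, and neither can the parental alleles.

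The label was checked against marker genes. All 8 adipocyte markers examined (among them Adipoq, Fabp4 and Plin1) had a promoter peak (within 1000 bp of the 5′ end) in both replicates, beside 51.4% of all protein-coding genes. Of 8 neuron markers 2 did, the synaptic gene Snap25 and the microtubule gene Map2. Rbfox3 had a peak in replicate 2 alone at its outermost 5′ end and in both replicates at another start, while Tubb3, Syt1, Neurod1, Dcx and Stmn2 had no promoter peak in either. Replicate 1 held 133695 peaks and replicate 2 held 216556 on the assembled chromosomes, and the number of reads behind them is unknown. The protocadherin window held 77 and 143 peaks, a mean of 110 ± 46.7 (SD, n = 2), and 67 and 123 hotspots, the broader regions of raised cutting. Of the replicate 1 peaks in the window 94.8% overlapped a replicate 2 peak (73 of 77, exact binomial 95% interval 87.2 to 98.6, counting error only). Of the replicate 2 peaks 51.0% had a partner (73 of 143, 42.6 to 59.5). The same shares over the genome were 90.3% and 55.5%. Merging the lists gave 72 shared peaks, intervals that held a peak of both replicates, beside 4 of replicate 1 alone and 66 of replicate 2 alone.

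**Figure D1:**
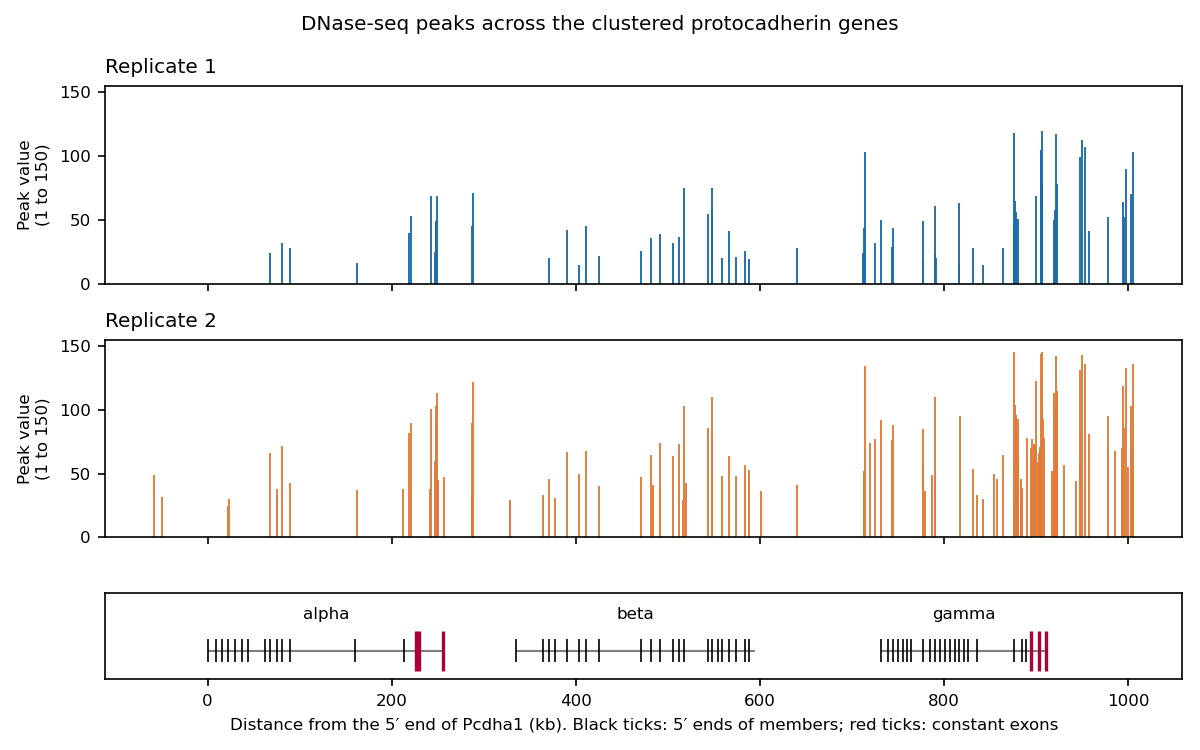
Peak values (the authors' signal, 1 to 150) of each replicate against the distance in kb from the 5′ end of Pcdha1, with the 5′ ends of the 57 genes and the 6 constant exons marked below. The 77 and 143 peaks were spaced along the beta promoters and denser between the constant exons and after the gamma cluster, while the first 8 alpha genes lay in a stretch without a shared peak.

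The clusters differed in how many of their promoters were open. A promoter was counted as open when both libraries had a peak reaching to within 1000 bp of the gene's 5′ end, which held for 51.4% of all protein-coding genes and for 55.8% of those on chromosome 18. It held for 27 of the 57 protocadherin genes (47.4%): 18 of 22 beta genes (81.8%), 6 of 21 gamma genes (28.6%) and 3 of 14 alpha genes (21.4%). A further 8 genes had a promoter peak in replicate 2 only, a state found in 4.19% of all genes. None had a peak in replicate 1 only, and 22 had none in either library. Taken singly, replicate 1 gave 27 members beside 51.7% of all genes and replicate 2 gave 35 beside 55.6%. Members of a cluster share sequence and position and are not independent, so these shares are given without a test. Restricted to the stronger 50% of each peak list, 8 protocadherin promoters were open (0 alpha, 3 beta and 5 gamma), beside 46.9% of all genes.

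**Figure D2:**
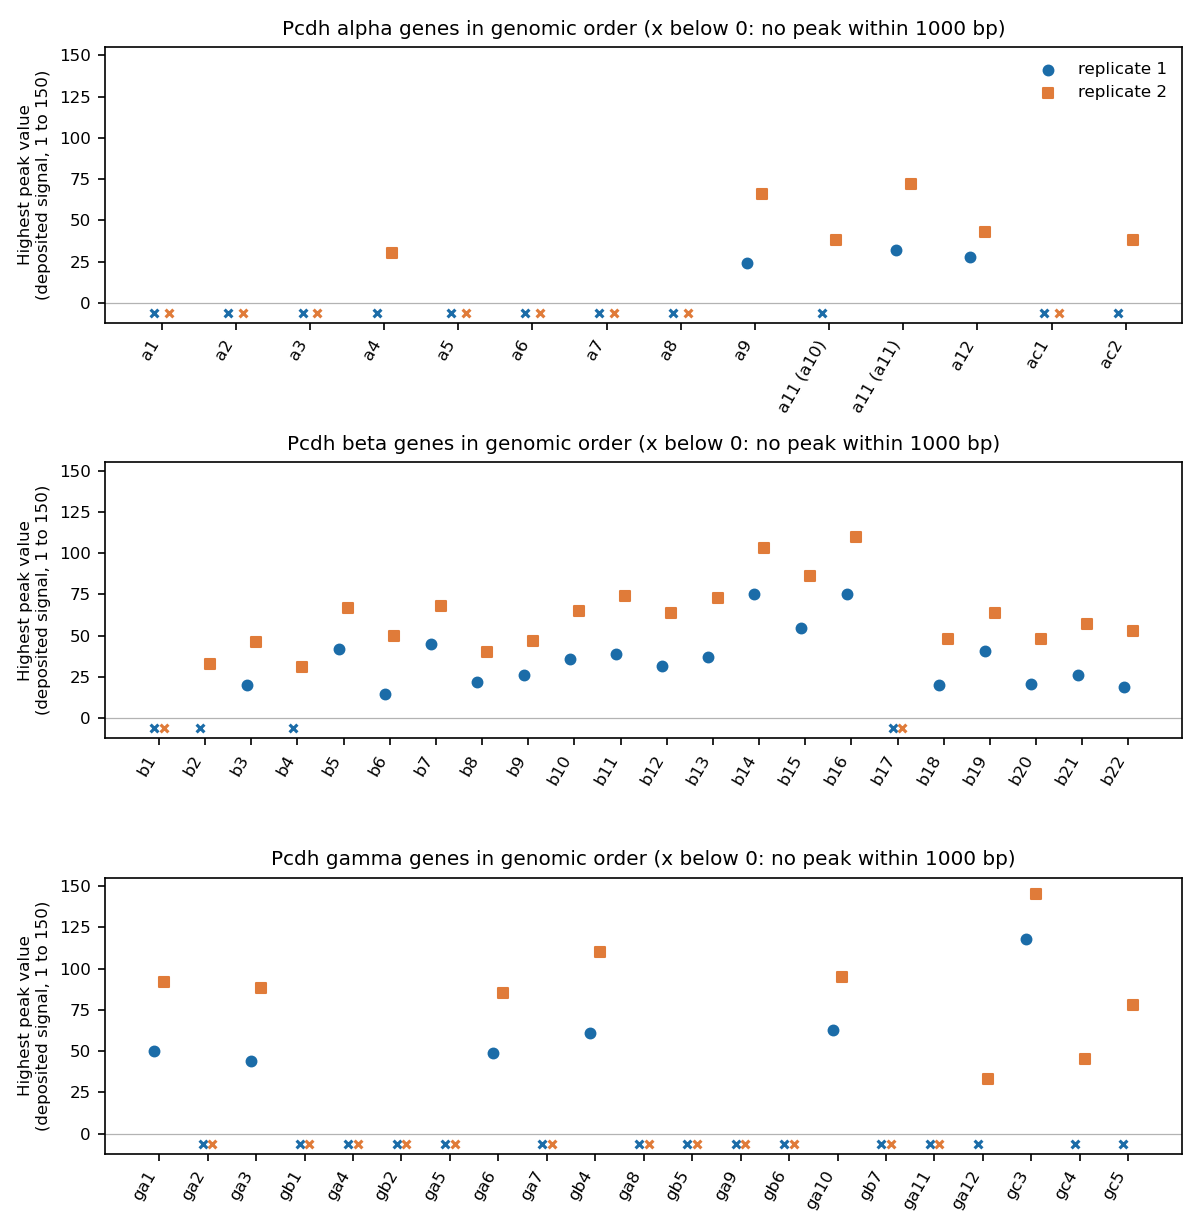
Highest peak value within 1000 bp of the 5′ end of each gene (the authors' signal, 1 to 150) in replicate 1 (circles) and replicate 2 (squares), with crosses below 0 for genes without a peak; prefixes are shortened, so b14 is Pcdhb14, and the names in brackets are those of RefSeq. Beta promoters were open almost throughout with values up to 75 and 110, gamma promoters were open at 6 scattered genes, and alpha promoters at 3 near the end of the row.

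Beta genes, which encode single-exon protocadherins, formed a nearly unbroken row of open promoters from Pcdhb5 to Pcdhb22, interrupted by Pcdhb17. Pcdhb3 was also open, with values of 20 in replicate 1 and 46 in replicate 2. The highest values stood together at Pcdhb14 (75 and 103), Pcdhb15 (55 and 86) and Pcdhb16 (75 and 110). The Pcdhb16 peak, on chromosome 18 from 37477756 to 37477905, lay at the percentiles 80.4 and 83.5 of the replicate lists. It was followed by a second peak within the promoter window in both replicates, with values of 57 and 78, inside 1 hotspot of 1287 bp in replicate 1 and 1429 bp in replicate 2. These 3 genes were the only beta members still open in the stronger 50% of the lists.

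The other open beta promoters had lower values. In replicate 1 they ranged from 15 at Pcdhb6 to 45 at Pcdhb7, and in replicate 2 from 40 at Pcdhb8 to 74 at Pcdhb11. Pcdhb5, Pcdhb7, Pcdhb10, Pcdhb11, Pcdhb12, Pcdhb13 and Pcdhb19 stood in the upper part of this range in both libraries, with values of at least 32 and 64. Pcdhb8, Pcdhb9, Pcdhb18, Pcdhb20, Pcdhb21 and Pcdhb22 stood lower, from 19 to 26 in replicate 1 and from 40 to 57 in replicate 2. At Pcdhb22 the peak lay inside the gene, 399 bp and 419 bp after the annotated 5′ end, close to a later start of the same gene. The peak also overlapped the annotated end of Pcdhb21, at 37518325.

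Of the beta genes that were not open, Pcdhb2 and Pcdhb4 had a weak peak in replicate 2 alone, with values of 33 and 31 at the percentiles 4.84 and 3.77 of that list. Pcdhb1, the first gene of the cluster, and Pcdhb17 had neither a peak nor a hotspot at the promoter in either replicate. Pcdhb1 stands apart from the rest of the cluster and lies next to the gap after the alpha genes, in a stretch of 82.25 kb without a shared peak that also holds Pcdhb2.

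Gamma genes were open at few, scattered positions, and those that were open had higher values than most beta genes. The A-type genes Pcdhga1 (50 and 92), Pcdhga3 (44 and 88), Pcdhga6 (49 and 85) and Pcdhga10 (63 and 95) and the B-type gene Pcdhgb4 (61 and 110) had a promoter peak in both replicates. Genes without a promoter peak stood between them. Pcdhga2, Pcdhga4, Pcdhga5, Pcdhga7, Pcdhga8, Pcdhga9 and Pcdhga11 had no promoter peak in either replicate, nor had the B-type genes Pcdhgb1, Pcdhgb2, Pcdhgb5, Pcdhgb6 and Pcdhgb7. By subtype, 4 of 12 A-type genes and 1 of 6 B-type genes were open. Pcdhga12 had a peak in replicate 2 alone, with a value of 33. Pcdhgb8, which GENCODE M21 annotates as a polymorphic pseudogene and which is therefore not among the 57 genes, had a promoter peak with values of 28 and 54.

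Pcdhgb4 had 3 peaks within 1000 bp of the 5′ end in replicate 1 and 4 in replicate 2, and Pcdhga6 had 2 and 3. Pcdhga3 had a second peak with values of 29 and 76, whose centre stood at −537 bp from the 5′ end in both replicates. Most other open members had a single peak: 6 of the 27 had 2 or more in replicate 1 and 7 in replicate 2, beside 68.3% and 77.9% of all open promoters.

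Pcdhgc3 was the strongest promoter of the 57 genes. Its peak on chromosome 18 from 37806256 to 37806405, centred at −34 bp from the 5′ end, had values of 118 and 145, at the percentiles 98.0 and 98.9. A hotspot of 2845 bp in replicate 2 ran from 37805936 to 37808780, across the promoter and into the variable exon, where replicate 1 had several shorter hotspots. Shared peaks inside the exon had values of 65 and 103, 56 and 94, and 50 and 96. The antisense RNA gene BC037039 starts among these peaks.

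None of the other C-type genes was open in both replicates. Pcdhac1 had no promoter peak in either library, although its variable exon held a weak shared peak 2037 bp after the 5′ end, with values of 16 and 37. Pcdhac2 had a peak in replicate 2 alone, with a value of 38, whose edge reached the promoter window and whose centre stood at −1073 bp from the 5′ end. Pcdhgc4 had 4 peaks in replicate 2 alone, the highest with a value of 45 and a centre at −929 bp. Pcdhgc5 had a peak in replicate 2 alone with a value of 78, centred 1017 bp after the 5′ end. The centres of the Pcdhac2 and Pcdhgc5 peaks thus lay outside the promoter window. Requiring centres inside it left the count of members open in both replicates at 27, which includes neither gene.

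Most alpha promoters were not open in both replicates. The 3 open ones lay at the end of the row of alternative exons. Pcdha9 had values of 24 and 66, Pcdha12 had 28 and 43, and the downstream of the 2 genes that GENCODE M21 names Pcdha11 had 32 and 72. The upstream gene of that name, which RefSeq lists as Pcdha10 in the same assembly, had peaks in replicate 2 alone with a highest value of 38. So did Pcdha4, with a highest value of 30. Pcdha1, Pcdha2, Pcdha3, Pcdha5, Pcdha6, Pcdha7 and Pcdha8 had no promoter peak in either library. The first 8 alpha genes lay in a stretch of 167.5 kb, from the start of the window to the Pcdha9 peak, that held no shared peak.

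Where these promoters were open, the peak sat tightly at the 5′ end. The centre of the highest peak stood at a median of −41 bp from the 5′ end in replicate 1 and −34 bp in replicate 2, where negative values lie before the gene. In 26 of 27 members (96.3%) it lay between 200 bp before and 50 bp after the 5′ end in each replicate, the exception being Pcdhb22. Among all 11274 open promoters the medians were −40 and −37 bp, and 64.8% and 64.1% lay in that interval. The centres of the highest peaks in both replicates were at most 20 bp apart in 24 of the 27 members, and 80 bp apart in the most distant pair. The same share over all open promoters is not given here, so this count stands without a reference. The order of the members by value was similar in both libraries, with a Spearman correlation of 0.895 across the 27 promoters, which share their libraries and, within a cluster, sequence.

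**Figure D3:**
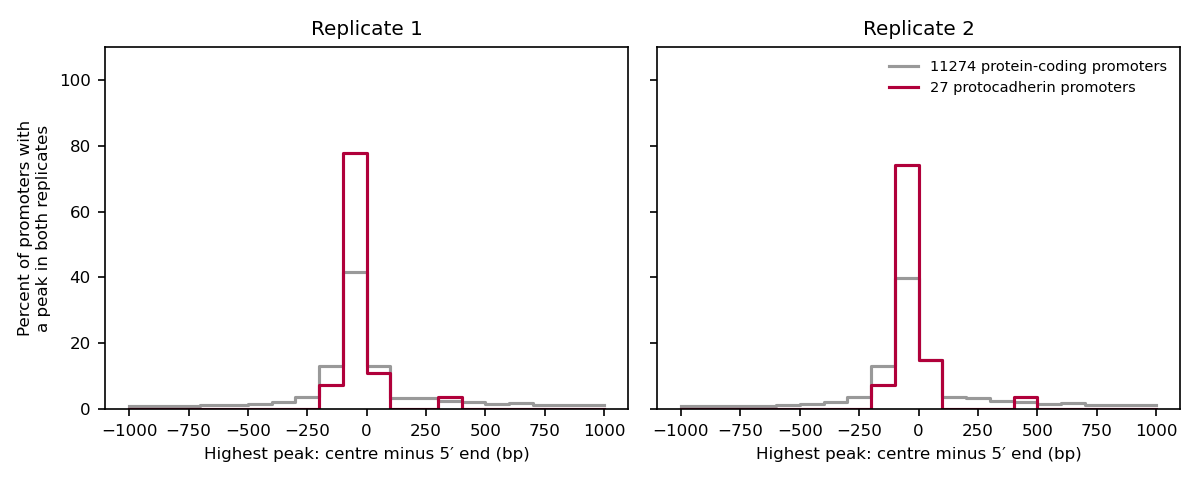
Position of the highest peak, as peak centre minus 5′ end in bp (negative before the gene), for the 27 open protocadherin promoters and for all 11274 open protein-coding promoters, as the percent of promoters per bin of 100 bp in each replicate. The protocadherin peaks lay mostly in the bin just before the 5′ end, with 96.3% between 200 bp before and 50 bp after it, while 64.8% and 64.1% of all promoters did.

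The open protocadherin promoters ranked low among open promoters. The highest peak of the 27 members stood at median percentiles of 38.3 in replicate 1 and 48.4 in replicate 2, and that of all open promoters at 92.1 and 95.3. The cluster medians were 21.8 and 47.2 for alpha, 33.0 and 44.7 for beta, and 63.3 and 72.7 for gamma. Values are the authors' own, saturate near 150 and served for ranking inside each list. Hotspots of both replicates likewise reached 27 member promoters, beside 52% of all promoters. The −log10 q of those hotspots reached the ceiling of 100 at 16 of the 27 in replicate 1 and at 23 in replicate 2. Over the genome 46.7% and 48.5% of all hotspots did, and the share over all open promoters is not given here. All 3 open alpha and all 6 open gamma promoters reached the ceiling in both replicates. Of the 18 open beta promoters 7 did in replicate 1 and 14 in replicate 2. The beta median in replicate 1 was 5.55, and the lowest beta values were 1.56 in replicate 1 and 4.28 in replicate 2.

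CpG content ran opposite to openness across the clusters. The ratio of observed to expected CpG within 500 bp of the 5′ end had a median of 0.379 over beta genes, 0.596 over gamma genes and 0.682 over alpha genes, beside 0.553 over all protein-coding genes. Over the genome open promoters rose with this ratio, from 10.5% of genes below 0.2 to 76.7% of those from 0.6 to 0.8 and 87.4% of those above. Among the protocadherins 10 of 13 genes between 0.2 and 0.4 were open, where 24.7% of all genes were. Between 0.4 and 0.6 the share was near that of all genes, with 11 of 21 open beside 52.3%. These were 1 of 2 alpha, 7 of 10 beta and 3 of 9 gamma genes. Between 0.6 and 0.8, 5 of 21 were open (2 of 12 alpha and 3 of 9 gamma genes), where 76.7% of all genes were. Genes whose ratio fell within the range of the beta genes were open in 27.9% of cases. All members but 2 in the bin from 0.2 to 0.4 were beta genes, and none in the bin from 0.6 to 0.8 was. Within beta the median ratio was 0.342 over the 18 open genes and 0.490 over the 2 without a peak in either replicate. Within alpha it was 0.642 over the 3 open genes and 0.704 over the 8 without a peak. Within gamma the order was the other way, with 0.641 over the 6 open genes and 0.617 over the 12 without a peak.

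**Figure D4:**
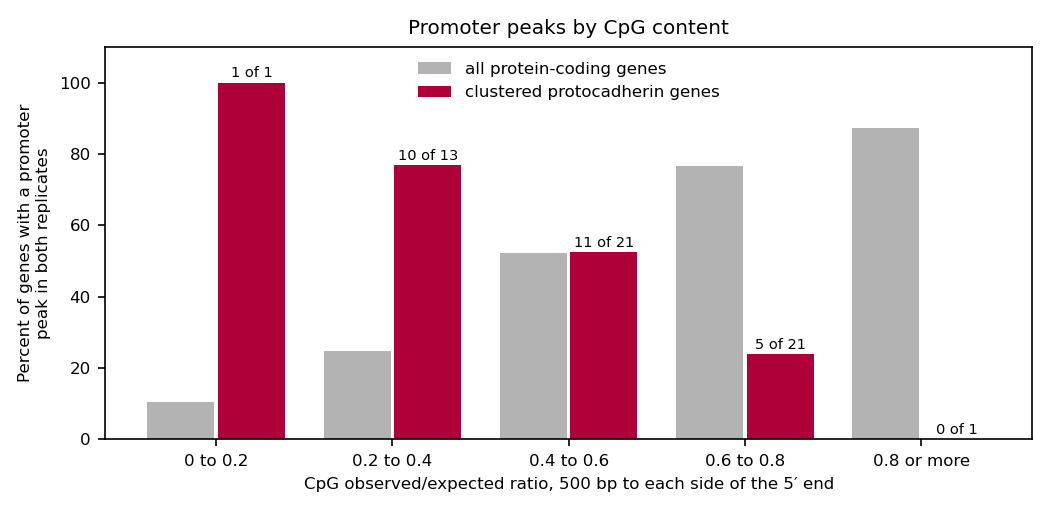
Percent of genes with a promoter peak in both replicates by the CpG observed/expected ratio around the 5′ end, for all protein-coding genes (grey) and the 57 protocadherin genes (red, with counts). The share over all genes climbed from 10.5% to 87.4% across the bins. The protocadherin counts were 10 of 13 from 0.2 to 0.4 and 5 of 21 from 0.6 to 0.8. Between these bins 11 of 21 were open, near the 52.3% of all genes.

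Near-identical sequence can keep reads from being placed, so the share of 31-base words in the window of 1000 bp to each side of the 5′ end that occur once in the assembled genome was computed. It had a median of 93.4% over the 27 open members (range 78.0 to 100) and 91.7% over the 22 without a peak in either replicate (73.2 to 100). By cluster the median was 88.7% for alpha, 97.5% for gamma and 99.5% for beta, the same order as the shares of open promoters. Within each cluster the median was lower over open genes than over those without a peak. The values were 88.2% and 88.7% in alpha, 96.4% and 100% in beta, and 97.3% and 97.7% in gamma. Pcdhb9, with 78.0%, was open, while Pcdhb1, Pcdhb17 and Pcdhac1, with 100% each, had no promoter peak. Pcdha7 had the lowest share, 73.2%, and no peak. The part of this measure in the counts was not tested.

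Most of these promoters are known to carry a conserved sequence element with the core CGCT just before the transcript start. The letters CGCT occurred on either strand between 250 bp before and 50 bp after the 5′ end in 55 of 57 members, and in 67.1% of all protein-coding promoters. The longer GGCGCT, which contains it and was chosen after its share had been seen, occurred in 25 members: 18 of 22 beta, 5 of 21 gamma and 2 of 14 alpha genes. Over all promoters the share was 18.5%. In the 18 beta genes it lay on the sense strand, at a median of −52.5 bp from the 5′ end (range −130 to −28). Of the beta genes without it, Pcdhb1 and Pcdhb17 had no promoter peak, whereas Pcdhb13 and Pcdhb22 were open. At Pcdhb22 the peak centres lay 399 bp and 419 bp after the 5′ end, so the sequence under that peak was not searched. Of those with it, Pcdhb2 and Pcdhb4 had a peak in replicate 2 alone. TATAAA was found in 10 of 57 members and 12.6% of all promoters. All motifs were searched on both strands in the same window. The matches describe letters, and binding was not measured.

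The variable-exon promoters took 33 of the 72 shared peaks in 114.1 kb. Of the 39 others, 14 lay in the flank after the gamma cluster, or 140 per Mb, and 9 in the introns between constant exons. The constant exons themselves held none, but take up only 4.98 kb in all, too short a length for a density. Of the 6 constant exons 2 were overlapped by a peak in replicate 2 alone: the last alpha exon (value 47) and the middle gamma exon (59). The introns between them, 43.4 kb in all, had 207 shared peaks per Mb. The sequence between variable exons held 6 in 413.7 kb, or 14.5 per Mb. By cluster this was 11.3 per Mb in alpha, 0 in beta and 46.0 in gamma. Chromosome 18 as a whole had 40.9 shared peaks per Mb, and the entire protocadherin window 64.8. Variable exons away from the promoters held 4 shared peaks, 3 of them in the Pcdhgc3 exon and 1 in the Pcdhac1 exon.

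Between the middle and the last alpha constant exon, 6 shared peaks lay between 37172316 and 37179385. The strongest had values of 69 and 113 (37179236 to 37179385) and of 69 and 101 (37172316 to 37172465). A hotspot of 1869 bp in replicate 1 and 2057 bp in replicate 2 joined 4 of them. The noncoding RNA gene Gm10544 starts inside that hotspot and Gm38097 beside the first peak, both on the opposite strand. A pair of shared peaks before the first constant exon, 5887 bp and 7167 bp after the 5′ end of Pcdhac2, had values of 40 and 82 and of 53 and 90.

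In each replicate the introns between the gamma constant exons held a peak at least as high as the Pcdhgc3 promoter peak (118 and 145). No shared peak there reached those values. Between the middle and the last constant exon a shared peak from 37835396 to 37835725 had values of 105 and 144, and the next, from 37836036 to 37836225, had 78 and 125. Beside them replicate 1 had a peak of value 120 (37836676 to 37836825) and replicate 2 a peak of value 145 (37836476 to 37836625), which did not overlap each other but lay in the same hotspot of 1928 bp and 2579 bp. A further shared peak from 37829516 to 37829665, within 1000 bp of the start of the antisense RNA gene Gm29994, had values of 69 and 123. From the first to the last gamma constant exon replicate 1 had 5 peaks and replicate 2 had 16. Hotspots covered 12.9% of it in replicate 1 and 33.7% in replicate 2, beside 1.66% and 2.80% of the genome.

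The gap of 77.3 kb between the alpha and beta clusters held 2 shared peaks, 29.8 kb and 30.7 kb after the last alpha exon. The first, from 37217396 to 37217565, had values of 45 and 90, and the second, from 37218276 to 37218445, had 71 and 122. An enhancer of alpha genes known as HS5-1 has been described in the mouse downstream of the alpha constant exons, and another, HS7, between those exons. The annotation used here holds neither, and these peaks were not matched to them.

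The gap of 137.3 kb between the beta and gamma clusters held 4 shared peaks. The strongest, with values of 103 and 134, was the promoter of Taf7, which encodes a subunit of the general transcription factor TFIID. Another lay within Taf7 (24 and 48), 1 at the start of the long noncoding RNA gene 3222401L13Rik just before Pcdhga1 (32 and 77), and 1 in intergenic sequence (28 and 41). The mitochondrial carrier gene Slc25a2, in the same gap, had no promoter peak in either replicate.

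The flanks differed from each other. The 100 kb before Pcdha1 held no shared peak and 2 peaks of replicate 2 alone, with values of 49 and 32. After the gamma cluster 14 shared peaks lay in 100 kb, all in or at the start of Diaph1, which encodes an actin-nucleating formin and runs on the opposite strand. The promoter of Diaph1 had values of 103 and 136. The strongest others, from 37852196 to 37852345 (117 and 142), 37880236 to 37880385 (113 and 143) and 37883616 to 37883765 (107 and 136), lay 10.4, 38.4 and 41.8 kb after the last gamma exon. Control elements of the beta genes have been described in the mouse downstream of the gamma cluster, and these peaks were not matched to them.

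Of 15 long noncoding RNA genes (antisense, lincRNA and processed transcript in GENCODE) that start in the window, 7 had a peak of both replicates within 1000 bp of the start. In 2 of these, Gm10545 at Pcdha12 and Gm37118 at Pcdhga1, the start lay within 1000 bp of the 5′ end of a member, so the peak cannot be assigned to either gene. BC037039 starts 1558 bp from the 5′ end of Pcdhgc3. Its highest replicate 2 peak, with a value of 104, also lay in the promoter window of Pcdhgc3. The share over long noncoding RNA genes elsewhere is not given here, so the 7 of 15 stands without a reference. Of the small RNA genes, the snoRNA gene Gm24401 starts 1060 bp from the 5′ end of Pcdhga6 and shared that gene's peak (49 and 85), and Mir6979 had none. The protein-coding read-through genes Gm42416, Gm37013 and Gm37388, which begin among the alpha exons, were not open: Gm42416 starts 93 bp from Pcdha4 and had the same 2 peaks of replicate 2 alone, and the others had none.

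Related genes outside the clusters were compared by the same count, which held for 51.4% of all protein-coding genes and 47.4% of the clustered members. Of 12 non-clustered protocadherins 5 were open (41.7%), with values from 60 to 99 in replicate 1 and from 95 to 135 in replicate 2. Pcdh7 had 99 and 135, Pcdh1 had 87 and 123, Pcdh19 had 84 and 129, and Pcdh18 had 60 and 95. Pcdh12 and Pcdh17 had a peak in replicate 2 alone, and Pcdh8, Pcdh10, Pcdh11x, Pcdh15 and Pcdh20 had none. Of 18 other cadherins 5 were open (27.8%). Among them were Cdh2, which encodes N-cadherin (90 and 132), Cdh11 (43 and 84), Cdh13 (62 and 102) and Cdh9 (22 and 67). Cdh1, Cdh3, Cdh4, Cdh5, Cdh6, Cdh7, Cdh8, Cdh10, Cdh12, Cdh15, Cdh18, Cdh20 and Cdh22 had no promoter peak in either replicate.

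Genes that organise or silence the protocadherin clusters were open in 20 of 24 cases (83.3%), beside 51.4% of all protein-coding genes. Among them were Ctcf (92 and 137), the cohesin gene Rad21 (121 and 142) and Smchd1, a chromatin repressor of the clusters (96 and 140). The DNA methyltransferase gene Dnmt3b, which methylates these promoters during development, was open with low values of 25 and 69. Of 9 signalling partners 7 were open (77.8%), among them the kinase genes Ptk2 (87 and 133) and Ptk2b (49 and 82). The receptor gene Ret and the synaptic adhesion gene Nlgn1 had no promoter peak.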

How the data were processed

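Per the labels, 2 libraries of day 8 adipocytes were profiled by DNase-seq. Per the text lists deposited beside them, regions were called on mm10 from 1 alignment file for each library. Caller, aligner and filters were not given in the sources used here, nor was read depth. The authors' peaks are 150 bp long and carry a signal from 1 to 150 of unknown scaling, and the deposited hotspots carry the −log10 of a q-value with a ceiling of 100. Identical duplicate peak lines (20 and 33) were counted once. Coordinates were used with GRCm38 and GENCODE M21, counted from 1.

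The members and all lists were chosen with earlier results of these data known. Shared peaks were merged intervals (overlap of at least 1 bp) with a peak of both replicates. Constant exons were exons overlapping those of at least 50% of a cluster's genes, and other regions were classed by their centre. Introns between constant exons were separated after the data were seen. Percentiles give the percent of a list at or below a value. The rule was to name every member with a promoter peak, the C-type genes, members beside the gaps, other coding genes starting in the window and, of each comparison list, the genes not open and up to 4 open ones. The genes not open among those that organise or silence the clusters are not reported here. Members without a peak, pseudogenes and noncoding genes were named in addition, after their values were seen. With 1 group no contrast or test was possible. Procedures were tested on simulated data: 300 planted promoters were recovered with 0 wrong calls among 18491. Python 3.11.15, NumPy 2.4.6, SciPy 1.17.1 and Matplotlib 3.10.9 were used.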

Additional observations from a re-analysis of the deposited data

How the results depend on the processing

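Of 52 alternatives over 7 counts, 42 stayed within 1.5 times the reported value. In the stronger 50% of each list open promoters fell from 27 to 8, from 3 to 0 in alpha and from 18 to 3 in beta, and shared peaks in the window from 72 to 38. Hotspots at the ceiling gave 31 shared hotspots in place of 61. Without flanks 25 shared peaks lay outside the promoters in place of 39. Leaving out either replicate gave 27 to 35 open promoters in all, 3 to 6 in alpha, 18 to 20 in beta and 6 to 9 in gamma. It gave 77 to 143 peaks in the window, 42 to 94 outside promoters and 67 to 123 hotspots, the higher value always from replicate 2 alone. Changing the promoter window to 500 bp or 2500 bp, or using hotspots, every transcript start or peak centres, gave 27 or 28 open promoters in all. No paired analysis was possible because there was only 1 group. The read depth is unknown, so a missing peak does not show closed chromatin, and the depth behind the longer replicate 2 list was not analysed here.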
